A study of Drosophila melanogaster with 4 samples.

Results

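The Wnt genes described here were 6 genes of secreted Wnt ligands (wg, Wnt2, Wnt4, Wnt5, Wnt6 and Wnt10), 3 genes of frizzled receptors (fz, fz2 and fz3) and nkd, a feedback inhibitor gene. They were taken by symbol, and all 10 stood in a table of 11880 genes of Drosophila melanogaster. The table came from poly-A RNA of larval heads, in 4 groups of 1 library each. The glioma groups with RNAi against Ca-alpha1T or against slo carried UAS-dEGFR[L], an EGFR construct, UAS-dp110[CAAX], a membrane-tethered PI3K catalytic subunit, and UAS-Ca-alpha1T-RNAi or UAS-Slo-RNAi, aimed at Ca-alpha1T, a T-type calcium channel, or slo, a calcium-activated potassium channel. Glioma carried the EGFR and PI3K constructs without RNAi. Control carried none of these. All 4 groups, Control included, carried tub-Gal80[ts], repo-Gal4 and UAS-myrRFP, a membrane-bound red fluorescent protein, and no drug was given. Gal4 under repo acts in glia, whereas the RNA came from larval heads and not from isolated glia. Eggs were laid over 3 days at 25 °C, larvae were held for 5 days at 29 °C, which releases Gal4 from Gal80[ts], and heads were taken on the last day. The labels give 1 batch name for all libraries and do not say how many animals or crosses went into each.

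Wnt proteins are lipid-modified signals that act between neighbouring cells. In the canonical pathway a Wnt binds a frizzled receptor together with the co-receptor Arrow, Dishevelled is engaged, the complex that destroys Armadillo (beta-catenin) is held back, and Armadillo enters the nucleus and switches on target genes with Pangolin (TCF). Frizzled also acts in planar cell polarity, and Wnt5 acts through Ryk-type receptors in axon guidance. In the larval head Wingless, the product of wg, patterns the eye-antennal disc and the optic lobe, and work on fly glioma described Frizzled protein on glial membrane projections and loss of Wingless from neurons. The values below are transcripts of heads and do not show in which cells a protein lies.

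With 1 library per group no difference has a replicate check, and no test between conditions was possible. CPM are counts scaled to a common total with TMM-adjusted library sizes. A log2 ratio is given with a 95% interval for counting error only, which is too narrow where PCR copies are not independent. A gene is called higher or lower where it differs by at least 2-fold, its interval excludes equality and it has at least 10 counts in 1 or both libraries. In bulk RNA, fewer cells of a type and less RNA per cell cannot be told apart.

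Total counts ranged from 31594447 to 38826243. The construct genes Egfr and Pi3K92E stood at 962 and 880 CPM with Ca-alpha1T RNAi, 651 and 373 CPM with slo RNAi and 897 and 903 CPM in Glioma, against 182 and 98.6 CPM in Control. Both were thus lowest of the glioma libraries with slo RNAi, and their part in the slo RNAi values was not tested. The targeted channel genes gave no firm check of the labels, since Ca-alpha1T stood at 16.6 CPM with its own RNAi, against 19.1 CPM in Glioma and 12.9 CPM in Control, and slo at 25.0 CPM with its own RNAi, against 34.2 CPM in Glioma and 23.0 CPM in Control. Markers of eye-antennal disc, neuroblasts, neurons and glia were all detected in every library, and so were muscle, salivary gland and fat body markers.

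In Glioma the ligand genes wg, Wnt2 and Wnt4 were called lower than in Control, while Wnt6, fz3 and Wnt10 lay within counting error of equality. The other 4 genes had log2 ratios from −0.88 for fz2 to −0.60 for fz. Thus 3 of the 10 genes were called lower and 0 higher, against 5.81% of 11410 detected genes called lower and 10.1% called higher. The median log2 ratio of the 10 genes was −0.74, against 0.00 for all detected genes. When total counts set the scale, the median over all genes shifted by −0.23, which added fz2 and nkd to the genes called lower, and of all calls 46.3% were then higher, against 63.5% with TMM. With Ca-alpha1T RNAi against Glioma 0 of 10 were called, against 4.93% of all detected genes called higher, 6.88% called lower and 11.8% in either direction, although 7 had intervals above 0, and the median was 0.47. With total counts the shift was 0.28 here, wg and fz2 were called higher, and of all calls 67.3% were then higher, against 41.7% with TMM. With slo RNAi against Glioma 1 of 10, Wnt10, was called higher, against 4.43% of all detected genes called higher, 6.8% called lower and 11.2% in either direction, and the median was 0.16.

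**Figure D1:**
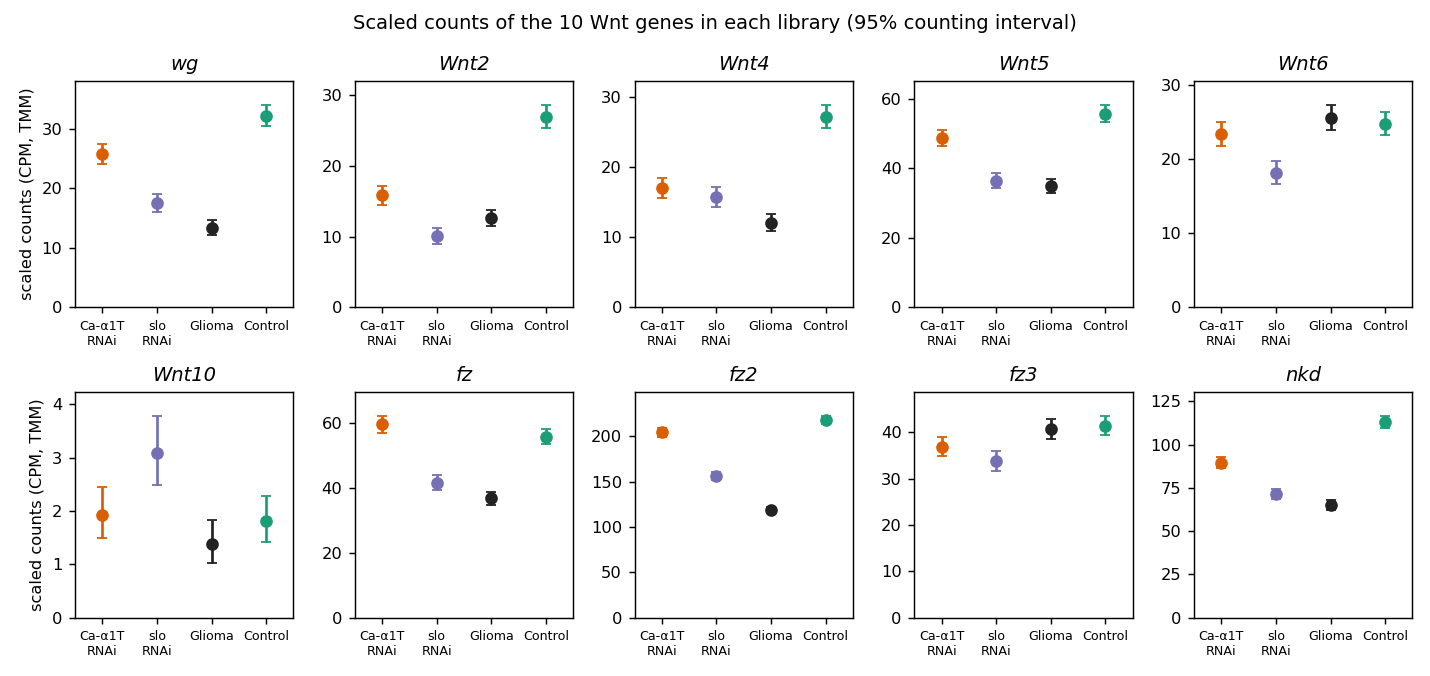
Scaled counts (CPM on TMM-scaled library sizes, linear axes from 0) of each Wnt gene in the Ca-alpha1T RNAi, slo RNAi, Glioma and Control libraries; points are single libraries and bars the 95% counting interval. For wg the points lie at 25.8, 17.5, 13.4 and 32.1 CPM in that order, whereas fz3 spans only 33.8 to 41.5 CPM.

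Among the ligands, wg had 896 counts with Ca-alpha1T RNAi, 528 with slo RNAi, 472 in Glioma and 1262 in Control, which were 25.8, 17.5, 13.4 and 32.1 CPM. Control was highest and Glioma lowest, and no neighbours in this order had an interval that included equality. The log2 ratio was −1.26 (−1.42 to −1.11) for Glioma against Control, 0.95 (0.78 to 1.11) for Ca-alpha1T RNAi against Glioma and 0.39 (0.21 to 0.57) for slo RNAi against Glioma. The value with Ca-alpha1T RNAi lies just inside the 2-fold limit, and total counts and the authors' FPKM and TPM put it outside. Glioma is shared by all 3 of these comparisons, so a low value in that library alone would move them all.

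Wnt4, whose product acts in cell movement and in the projection of retinal axons, had 588, 472, 424 and 1064 counts with Ca-alpha1T RNAi, with slo RNAi, in Glioma and in Control, or 16.9, 15.7, 12.0 and 27.1 CPM. Control stood apart from the 3 glioma libraries, and the 2 RNAi libraries did not differ beyond counting error, with a log2 ratio of 0.11 (−0.07 to 0.29) for Ca-alpha1T RNAi against slo RNAi. The log2 ratio for Glioma against Control was −1.17 (−1.34 to −1.01). The protein-coding gene CG31909 overlaps Wnt4 on the other strand, so reads of the pair cannot be told apart where strand was not used in counting. The table held no counts of CG31909 itself. In the Ca-alpha1T RNAi library the Wnt4 ratio was 0.49 (0.31 to 0.68) against Glioma and −0.68 (−0.83 to −0.53) against Control.

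Wnt2, a ligand gene needed for testis and tracheal development, had 550, 302, 444 and 1058 counts in the same libraries, or 15.8, 10.02, 12.6 and 26.9 CPM. It was lowest with slo RNAi rather than in Glioma, and it was the 1 Wnt gene called with slo RNAi against Control, where 5.95% of all detected genes were called lower and 7.31% higher. That log2 ratio was −1.43 (−1.62 to −1.24), next to −1.10 (−1.26 to −0.94) for Glioma against Control. Against Glioma, Wnt2 stood at −0.33 (−0.54 to −0.11) with slo RNAi and at 0.33 (0.15 to 0.51) with Ca-alpha1T RNAi.

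Wnt5, an axon guidance ligand gene, had 1689, 1097, 1231 and 2187 counts, or 48.6, 36.4, 34.9 and 55.7 CPM. The library with slo RNAi and Glioma did not differ beyond counting error, with a log2 ratio of 0.06 (−0.06 to 0.18), and both lay below the other libraries. The ratio for Glioma against Control was −0.68 (−0.78 to −0.57), under the 2-fold limit. The Ryk-type receptor gene drl had a ratio of −0.54 (−0.61 to −0.48) there, and the ratio of Wnt5 to drl counts, in which library scaling cancels, changed by −0.13 (−0.25 to −0.01).

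Wnt6, which is expressed beside wg in imaginal discs, had 813, 548, 902 and 972 counts, or 23.4, 18.2, 25.5 and 24.7 CPM. Glioma and Control were alike within counting error, with a log2 ratio of 0.05 (−0.09 to 0.18), whose sign turned on total counts and on the authors' FPKM and TPM. The lowest library was slo RNAi, at −0.49 (−0.65 to −0.34) against Glioma. Wnt10 was the least abundant, with 67, 93, 49 and 71 counts, or 1.93, 3.08, 1.39 and 1.81 CPM. Its log2 ratio of 1.14 (0.64 to 1.68) for slo RNAi against Glioma passed the rule on 93 against 49 counts. The call was lost with the authors' FPKM at a pseudocount of 1, at 0.47, with their TPM at the same pseudocount, at 0.63, and with scaling to disc, neuroblast and neuron markers, at 0.78. The interval for Glioma against Control included equality, at −0.38 (−0.94 to 0.16). An antisense RNA gene, of which the table held no counts, overlaps Wnt10 on the other strand. Since the sources used here do not give the use of strand in counting, it is not known whether reads of the pair were told apart.

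**Figure D2:**
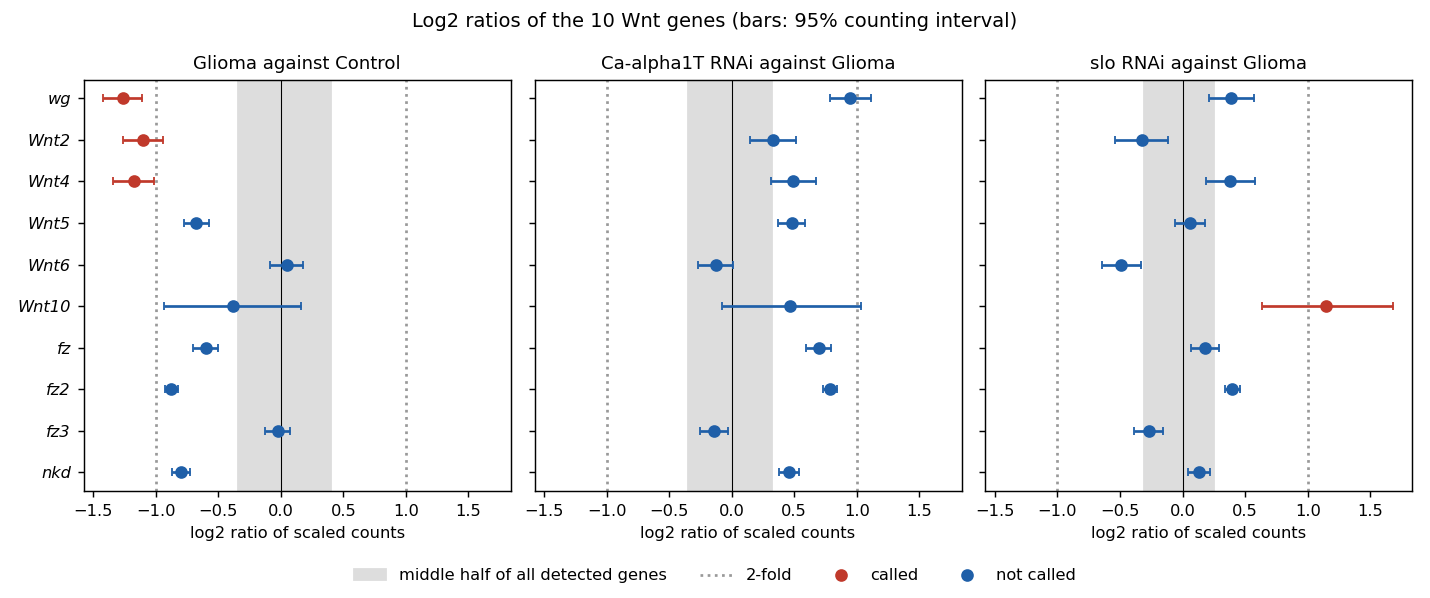
Log2 ratios of scaled counts of the Wnt genes in Glioma against Control, Ca-alpha1T RNAi against Glioma and slo RNAi against Glioma, with 95% counting intervals; the grey band holds the middle quartiles of all detected genes and dotted lines mark 2-fold. In Glioma against Control wg, Wnt4 and Wnt2 lie at −1.26, −1.17 and −1.10, and Wnt6 and fz3 at 0.05 and −0.03.

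wg, Wnt4, Wnt6 and Wnt10 lie together on chromosome arm 2L, within 122 kb from 7255419 to 7377528 (dm6 coordinates), with CG31909 as the only other protein-coding gene of that stretch in the annotation. wg lies at 7307159 to 7316265 on the plus strand and Wnt4 at 7255419 to 7277171 on the minus strand, so its start lies at −29.99 kb from that of wg and they are read away from each other. Wnt6 starts 26.6 kb and Wnt10 56.2 kb downstream of the start of wg, both on the plus strand. These neighbours did not share 1 pattern. In Glioma against Control the ratio of wg to Wnt4 counts changed by only −0.09 on the log2 scale (−0.31 to 0.13), whereas the ratio of wg to Wnt6 counts changed by −1.31 (−1.51 to −1.11). Between Ca-alpha1T RNAi and Glioma, wg moved by 0.45 more than Wnt4 (0.21 to 0.69) and by 1.07 more than Wnt6 (0.86 to 1.29).

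Within 150 kb of the start of wg the table held 28 genes, of which 24 were not Wnt genes. Of these 24, 4 were called lower in Glioma against Control and 0 higher, against 5.81% and 10.1% of all detected genes, with 15 below 0 and 9 above. Their median log2 ratio was −0.32 and their range −2.89 for CG5171 to 0.87 for muc. The 24 include a noncoding RNA gene with 2 counts in Glioma and 5 in Control, too few to be called. Of the other Wnt genes, Wnt2 lies on 2R at 9494166 to 9503188 and Wnt5 on X at 18501401 to 18505405.

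**Figure D3:**
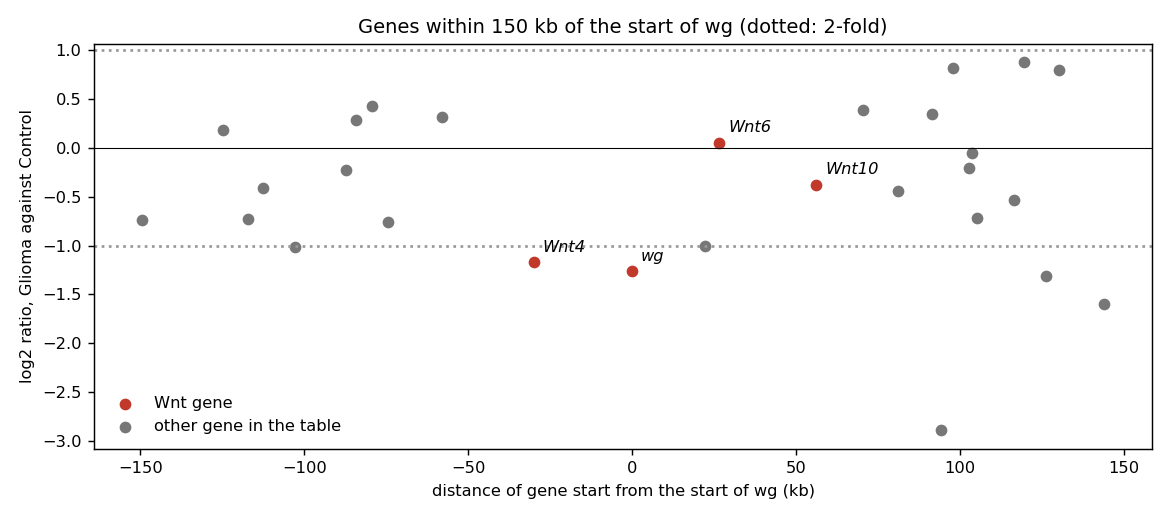
Log2 ratio for Glioma against Control of every gene in the table whose start lies within 150 kb of the start of wg, by distance in kb; red points are Wnt genes and dotted lines mark 2-fold. Wnt4, at −29.99 kb, and wg lie at −1.17 and −1.26, whereas Wnt6, at 26.6 kb, lies at 0.05.

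Per transcript length, Wnt5 was the most abundant ligand gene in every library and Wnt10 the least, on the authors' TPM. Wnt5 stood at 19.2 TPM with Ca-alpha1T RNAi, 11.1 with slo RNAi, 9.87 in Glioma and 18.9 in Control, and in Glioma Wnt6 was next to it at 9.83 TPM. The 6 ligand genes summed to 64.9 TPM with Ca-alpha1T RNAi, 37.9 with slo RNAi, 35.3 in Glioma and 74.1 in Control. The make-up of that sum differed in Glioma. There wg was 14.2% of the summed ligand TPM and Wnt6 27.8%, against 20.2% and 16.0% in Control. With Ca-alpha1T RNAi these shares were 20.8% and 19.4%, and with slo RNAi 18.6% and 19.9%. TPM is a share of all transcripts, so its sums also move with abundant RNAs outside the pathway, but shares within the sum do not.

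**Figure D4:**
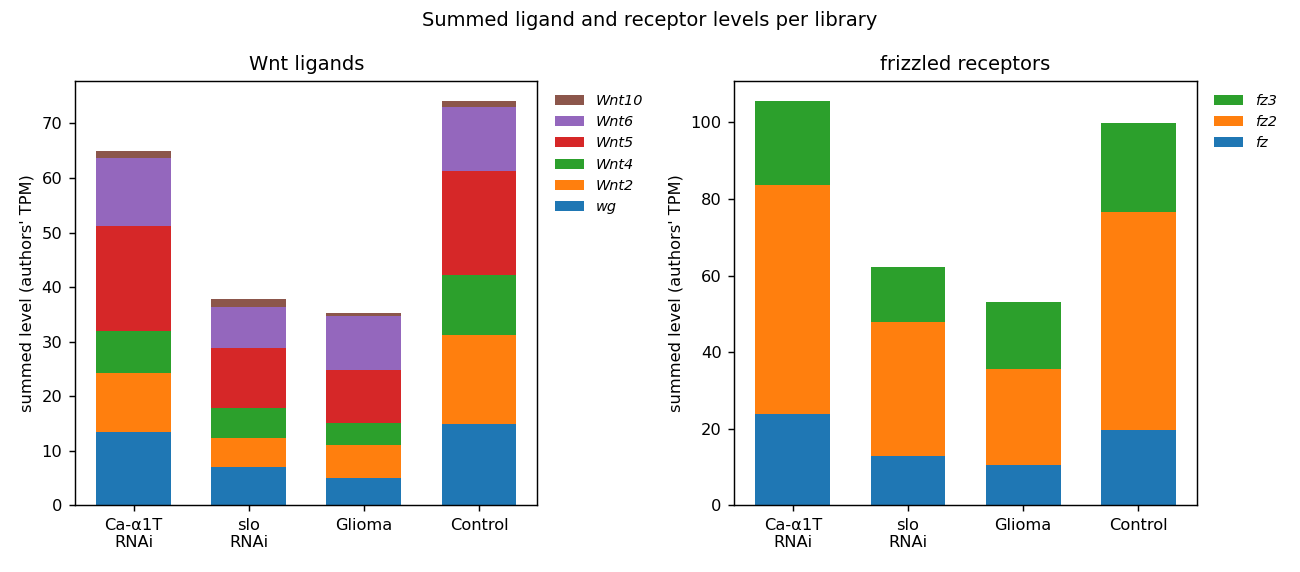
Summed levels (authors' TPM, bars from 0, 1 library each) of the ligand genes and of the frizzled genes with Ca-alpha1T RNAi, with slo RNAi, in Glioma and in Control. The ligand bars reach 64.9, 37.9, 35.3 and 74.1 TPM and the receptor bars 106, 62.3, 53.2 and 99.8 TPM in that order.

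Among the receptors, fz2, the high-affinity receptor gene of Wingless, was the most abundant per length in every library, at 59.9, 35.1, 25.1 and 56.8 TPM with Ca-alpha1T RNAi, with slo RNAi, in Glioma and in Control. It had 7108 counts with Ca-alpha1T RNAi, 4715 with slo RNAi, 4190 in Glioma and 8552 in Control, or 204, 156, 119 and 218 CPM. Ca-alpha1T RNAi and Control lay close together, with a log2 ratio of −0.09 (−0.14 to −0.05), and Glioma was lowest. The ratio was −0.88 (−0.93 to −0.82) for Glioma against Control, 0.78 (0.73 to 0.84) for Ca-alpha1T RNAi against Glioma and 0.40 (0.34 to 0.46) for slo RNAi against Glioma. In the wing disc Wingless signalling lowers fz2 transcription, which is background and not a result here.

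fz, a receptor of both planar polarity and Wingless signalling, had 2066, 1253, 1296 and 2186 counts with Ca-alpha1T RNAi, with slo RNAi, in Glioma and in Control, or 59.4, 41.6, 36.7 and 55.7 CPM. Here Ca-alpha1T RNAi was the highest library, at 0.09 (0.01 to 0.18) on the log2 scale against Control. The ratio for Glioma against Control was −0.60 (−0.70 to −0.50). The gene CG13482 overlaps fz on the same strand and 1 long noncoding RNA gene on the other, so some reads may be shared, and noncoding RNA genes overlap fz2 and nkd as well. CG13482 had 1291 counts in Glioma and 713 in Control, the opposite direction to fz.

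fz3 codes for a lower-affinity frizzled whose transcription Wingless signalling raises in discs. It had 1284, 1019, 1439 and 1630 counts, or 36.9, 33.8, 40.8 and 41.5 CPM. Glioma and Control did not differ beyond counting error, at −0.03 (−0.13 to 0.08), and slo RNAi was lowest, at −0.27 (−0.39 to −0.15) against Glioma. As a share of the summed TPM of fz, fz2 and fz3, fz3 made up 33.2% in Glioma, against 23.2% in Control, and fz2 made up 47.1% in Glioma, against 57.0% in Control. With Ca-alpha1T RNAi fz3 was 20.7% and with slo RNAi 23.0%. fz lies on 3L at 14274343 to 14368639, fz2 on 3L at 19140975 to 19235373 and fz3 on X at 769945 to 784222.

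nkd codes for Naked cuticle, which binds Dishevelled and damps the signal, and Wingless signalling induces its transcription. It lies on 3L at 19003741 to 19045449. It had 3114, 2151, 2299 and 4444 counts with Ca-alpha1T RNAi, with slo RNAi, in Glioma and in Control, or 89.5, 71.3, 65.1 and 113 CPM. Control was highest, and slo RNAi and Glioma were lowest. The log2 ratio was −0.80 (−0.87 to −0.72) for Glioma against Control, 0.46 (0.38 to 0.54) for Ca-alpha1T RNAi against Glioma and 0.13 (0.05 to 0.22) for slo RNAi against Glioma.

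nkd and fz3, both known as Wingless target genes, therefore had unlike patterns. The ratio of nkd to fz3 counts changed by −0.77 on the log2 scale (−0.90 to −0.65) in Glioma against Control, by 0.60 (0.47 to 0.74) with Ca-alpha1T RNAi against Glioma and by 0.40 (0.26 to 0.55) with slo RNAi against Glioma. The closest pairs among the 10 genes were Wnt5 with nkd, whose centred log2 profiles over the 4 libraries differed by a root mean square of 0.06, and Wnt6 with fz3, at 0.09. The most distant pair was Wnt2 with Wnt10, at 0.79.

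Ranked by scaled counts, 5 of the 10 genes (wg, Wnt4, Wnt5, fz2 and nkd) had Control highest, then Ca-alpha1T RNAi, then slo RNAi, and Glioma lowest. The same order was found in 24 of 65 other genes of the pathway (36.9%) and in 8.31% of 11534 genes of the table. On the authors' TPM it was found in 3 of the 10 (wg, Wnt4 and nkd), in 25 of the 65 and in 13% of the table. This order is the one wg shows on these same values, so the shares describe it and test nothing. For Wnt4 the RNAi libraries, and for Wnt5 slo RNAi and Glioma, did not differ beyond counting error.

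The rest of the pathway was described with 67 genes in 6 lists by role, of which 65 matched the table. In Glioma against Control 5 were called lower and 0 higher, against 5.81% and 10.1% of all detected genes, so the share called lower was near that of the whole table. Of the 65 genes 60 lay below 0, and the median log2 ratio was −0.45, against 0.00 for all detected genes. With Ca-alpha1T RNAi against Glioma 60 lay above 0, with a median of 0.32, and 1 was called higher, against 4.93% of all detected genes. With slo RNAi against Glioma 51 lay above 0, with a median of 0.17, and 1 was called higher, against 4.43% of all detected genes.

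Of the 6 secretion genes 0 were called in Glioma against Control, with a median of −0.28. wls, whose product carries Wnts to the cell surface, had a log2 ratio of −0.88 (−0.97 to −0.79) there and of 0.76 (0.66 to 0.86) with Ca-alpha1T RNAi against Glioma. The retromer gene Vps35, which recycles Wls, stood at −0.31 in Glioma against Control. Of the 13 cell surface genes 1 was called lower, against 5.81% of all detected genes, and 12 lay below 0, with a median of −0.50. The called gene was otk, a receptor-like kinase gene, with 1192 counts in Glioma and 3109 in Control and a ratio of −1.23 (−1.33 to −1.13). Swim, a gene for a Wingless-binding secreted protein, was the 1 above 0, at 0.91 (0.87 to 0.95).

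All 12 cytoplasmic genes lay below 0 in Glioma against Control and 0 were called. The median was −0.47 and the range −0.59 for dco, a casein kinase gene, to −0.21 for Apc2. dsh, the Dishevelled gene, stood at −0.57 (−0.69 to −0.45), and all 12 lay above 0 with Ca-alpha1T RNAi against Glioma. Of the 10 nuclear genes 0 were called and 9 lay below 0, with a median of −0.34. The Wnt coactivator gene pygo stood at −0.47 and nej at −0.45. Among the 8 planar polarity genes in, which acts downstream of Frizzled in wing hair polarity, was the 1 called lower (5.81% of all detected genes), at −1.24 (−1.43 to −1.05), and stan, an atypical cadherin gene, stood at −0.94. The list median was −0.46.

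Of the 16 genes listed as targets 3 were called lower and 0 higher in Glioma against Control, against 5.81% and 10.1% of all detected genes, 15 lay below 0 and the median was −0.62. Notum codes for a secreted hydrolase that removes the lipid of Wnts and is a feedback target of Wingless. It had 394 counts with Ca-alpha1T RNAi, 211 with slo RNAi, 170 in Glioma and 380 in Control. Its log2 ratio was −1.005 (−1.28 to −0.74) for Glioma against Control, at the 2-fold limit, and the call was lost with TMM on that pair, with a prior count of 5, and with the authors' FPKM or TPM at a pseudocount of 1. With Ca-alpha1T RNAi against Glioma it was called higher, at 1.23 (0.972 to 1.503).

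The proneural gene sc was also called lower in Glioma against Control, at −1.23 (−1.43 to −1.03), and so was Dtg, at −1.43 (−1.53 to −1.33). The files name Dtg a target gene of Dpp, another signal, so it is not a target of Wnt signals alone. sens, a sensory organ gene, had 375, 635, 307 and 493 counts with Ca-alpha1T RNAi, with slo RNAi, in Glioma and in Control. It was the 1 pathway gene called higher with slo RNAi against Glioma, at 1.27 (1.08 to 1.48). That call was lost with scaling to disc, neuroblast and neuron markers, which moved the median of all genes by −0.37. These targets were defined mostly in wing and leg discs, and they also answer to other signals.

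Markers of several head tissues also differed between these libraries. In Glioma against Control the 12 eye-antennal disc markers had a median log2 ratio of −0.48, the 6 neuroblast markers −0.62 and the 9 neuron markers −0.60, next to −0.74 for the Wnt genes. Called among these 27 was 1 gene, the neuronal gene fne, lower at −1.27, next to elav at −0.83. Above 0 lay 3 of the 12 disc markers (highest 0.28) and 2 of the 9 neuron markers (highest 0.44), but 0 of the 6 neuroblast markers. Over all detected genes 5.81% were called lower and 10.1% higher. The disc genes toy and lz stood at −0.80 and −0.78 and the neuroblast genes mira and wor at −0.97 and −0.77. Summed over each list, eye-antennal disc markers stood at 316 CPM with Ca-alpha1T RNAi, 295 with slo RNAi, 238 in Glioma and 321 in Control. Neuron markers stood at 605, 615, 437 and 648 CPM and neuroblast markers at 191, 182, 134 and 218 CPM. On each of these 3 sums Glioma was the lowest library, and no marker was at 0 in any library, since the table lists only genes with at least 1 count in each.

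The 10 muscle markers went the other way and were all called higher in Glioma against Control, with a median of 1.77, TpnC47D and Mhc at 2.05 and 1.96, and sums of 53346 CPM in Glioma and 15273 CPM in Control. The RNAi libraries lay between these, at 20439 CPM (Ca-alpha1T) and 33062 CPM (slo). The 6 salivary glue markers were all called lower in Glioma against Control, with a median of −4.47 and a range of −8.82 for Sgs1 to −3.26 for Sgs4, and with Sgs3 at −5.24. The 6 fat body markers had a median of −0.90, with Fbp1 and Fbp2 at −3.42 and −1.53, and 3 were called lower. In the glia list 3 of 10 were called higher and 1 lower, with a median of 0.44, moody and Mdr65 standing at 2.74 and 2.69. For these marker lists the shares of all detected genes in Glioma against Control were 10.1% called higher and 5.81% called lower. In Ca-alpha1T RNAi against Glioma 8 muscle markers were called lower, against 6.88% of all detected genes. Disc, neuroblast and neuron markers had medians of 0.38, 0.50 and 0.48 there. With slo RNAi against Glioma all 6 glue markers and 5 fat body markers were called higher, against 4.43% of all detected genes. Disc, neuroblast and neuron markers had medians of 0.30, 0.63 and 0.40 there. The part of these tissue markers in the Wnt values was not tested.

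**Figure D5:**
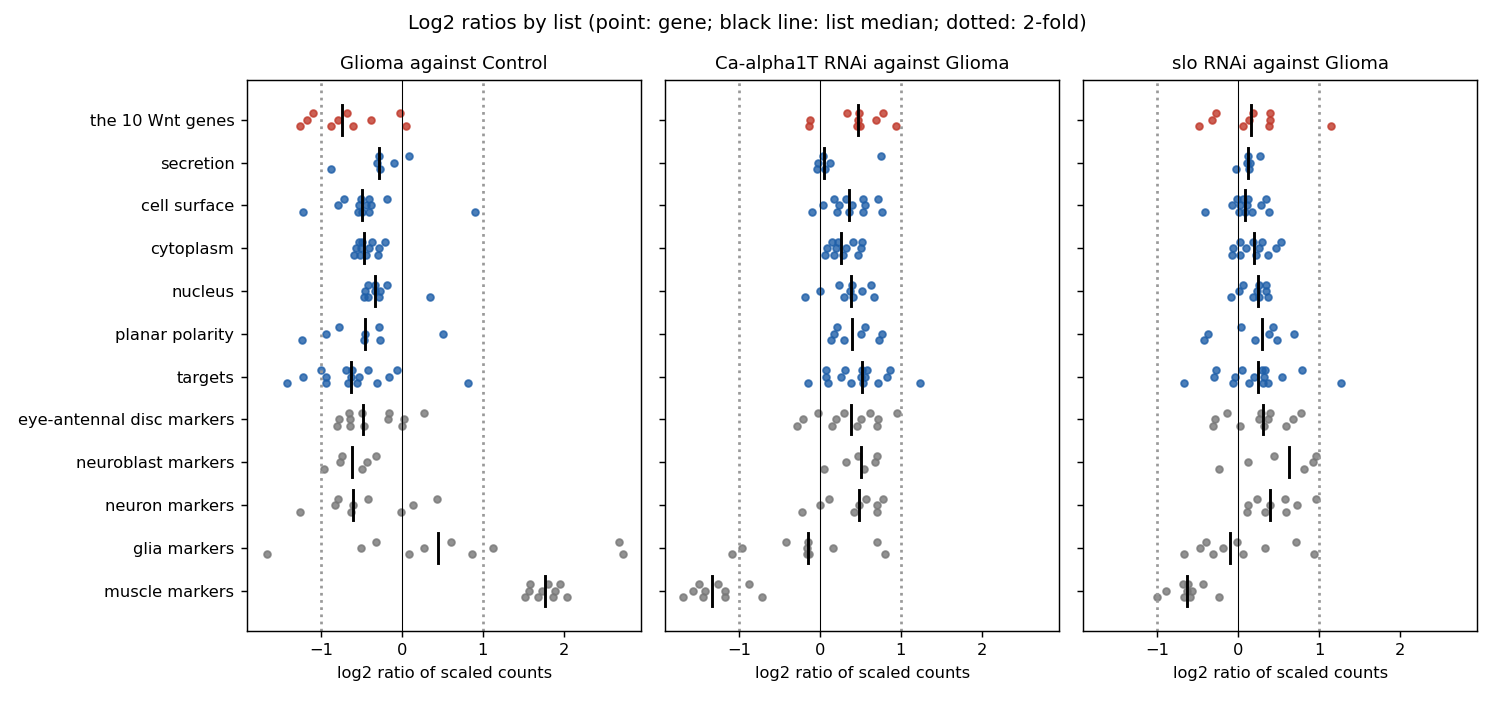
Log2 ratios of scaled counts by list in Glioma against Control, Ca-alpha1T RNAi against Glioma and slo RNAi against Glioma; each point is a gene, black lines are list medians and dotted lines mark 2-fold (salivary gland and fat body lists are not drawn). In Glioma against Control the Wnt genes have a median of −0.74, neuroblast and neuron markers −0.62 and −0.60, and muscle markers 1.77.

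Set relative to those 27 disc, neuroblast and neuron markers, by scaling the libraries so that their median was 0 (a scaling chosen after the values were seen), the median of the Wnt genes in Glioma against Control was −0.24. wg stood at −0.77, Wnt4 at −0.68 and Wnt2 at −0.60 on that scale, while Wnt6 stood at 0.54 and fz3 at 0.47. Of the 10 genes 0 were called, whereas of 11410 detected genes 2388 were called higher and only 316 lower on that scale. For Ca-alpha1T RNAi against Glioma the median of the Wnt genes became 0.01, with wg at 0.48, fz2 at 0.32, Wnt6 at −0.59 and fz3 at −0.61. With slo RNAi against Glioma it became −0.21, with wg at 0.02, Wnt2 at −0.70 and Wnt6 at −0.86.

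Set directly against Control, the library with Ca-alpha1T RNAi had 0 of 10 Wnt genes called, against 6.05% of all detected genes called higher, 4.15% called lower and 10.2% in either direction, and a median log2 ratio of −0.18. wg stood at −0.32 (−0.44 to −0.19), nkd at −0.34 (−0.40 to −0.27) and Wnt2, the lowest, at −0.77 (−0.92 to −0.62). With slo RNAi against Control the median was −0.55, wg stood at −0.88 (−1.02 to −0.73), and Wnt10 was the 1 gene above 0, at 0.77 (0.31 to 1.24). Between the RNAi libraries 0 of 10 were called, against 5.66% of all detected genes called higher, 4.74% called lower and 10.4% in either direction. There 9 of 10 were higher with Ca-alpha1T RNAi than with slo RNAi, led by Wnt2 at 0.66 (0.45 to 0.87) and wg at 0.56 (0.40 to 0.71), and Wnt10 was lower, at −0.67 (−1.15 to −0.21). Neuron marker sums of these libraries were close, at 605 and 615 CPM, whereas muscle sums were 20439 and 33062 CPM. Salivary glue sums were 1319 CPM for Ca-alpha1T RNAi against 9782 CPM for slo RNAi, and fat body sums 14029 against 21649 CPM. In this comparison 6 of 6 glue, 3 of 6 fat body and 1 of 10 muscle markers were called lower, against 4.74% of all detected genes. The part of these tissues in the Wnt differences was not tested.

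Genes with the nearest centred log2 profiles over the 4 libraries were searched for each Wnt gene among 5639 genes. These had at least 100 counts in every library, and genes with only a clone or RNA number as symbol were left out. Genes left out may lie nearer than those named. Nearest to wg were LManII, a lysosomal mannosidase gene, at a root mean square difference of 0.05, Hr39, a nuclear receptor gene, at 0.06, and aop, a transcriptional repressor gene of the EGFR pathway, at 0.06. Nearest to fz2 were ck, an unconventional myosin gene, and the kinase gene Sik3, at 0.01 and 0.02, and nearest to nkd was the gap gene kni at 0.03. Among the 3 nearest to Wnt5 was en, the selector gene engrailed, at 0.03, and nearest to fz3 was mRpL21, a mitochondrial ribosomal protein gene, at 0.02. The other nearest genes were yellow-f, Ho and Sply for Wnt2, alt, Dscam3 and Rph for Wnt4, ari-2 and d for Wnt5, and yellow-b, Prp18 and Caf1-180 for Wnt6. They were Dgp-1, dob and mtTFB1 for Wnt10, wit and gukh for fz, Lrch for fz2, Rnp4F and FLASH for fz3, and mtt and alpha-Man-IIb for nkd, and no difference among these was above 0.08. With 4 libraries many genes share a profile, and nearness is a description only.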

How the data were processed

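The authors deposited 1 whole-number read count per gene and library. Beside it stand the authors' own FPKM and TPM, per the file headers. The authors' signed fold changes in the same table were read but no result rests on them. Per the submitters' processing notes, the tools were HISAT2 2.1.0, Trimmomatic 0.38, edgeR, StringTie 2.1.3b and FastQC 0.11.7 on dm6, with no roles stated. The library kit keeps strand per the labels, but the sources used here do not give the use of strand in counting. The lowest count in the table is 1, so genes at 0 in any library are not listed.

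Libraries were scaled with TMM over the 4 libraries (edgeR 4.0.16, R 4.3.3), with factors of 1.10 with Ca-alpha1T RNAi, 0.939 with slo RNAi, 0.909 in Glioma and 1.06 in Control. Log2 ratios used a prior count of 0.5, and intervals are exact conditional binomial (Python 3.11.15, scipy 1.17.1). They were checked only on counts simulated with counting error alone, as the intervals assume, so other variation between libraries was not checked. Changes of a ratio between 2 genes have normal intervals from the 4 counts. Positions came from the Ensembl annotation in dm6 coordinates. The 10 genes and all lists were chosen with earlier results of these data known. Named were all 10 genes, every other pathway gene called in a main comparison, the 2 genes per list with the largest absolute ratio in Glioma against Control and, per Wnt gene, the 3 nearest profiles, of which 1 is not reported here; drl, Apc2, Sgs4, CG5171, CG13482 and muc were named after their values were seen. Alternatives were DESeq2 1.42.0 size factors, total counts, TMM on each pair, other count and fold limits, and the authors' TPM and FPKM in place of counts, besides a larger prior count of 5.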

Additional observations from a re-analysis of the deposited data

How the results depend on the processing

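With TMM, the Wnt genes called numbered 3 in Glioma against Control, 0 with Ca-alpha1T RNAi against Glioma, 1 with slo RNAi against Glioma, 0 with Ca-alpha1T RNAi against Control, 1 with slo RNAi against Control and 0 between the RNAi libraries, and other pathway genes called numbered 5, 1, 1, 0, 4 and 2 in that order. No call reversed. For the Wnt genes, total counts gave 5 in Glioma against Control, 2 with Ca-alpha1T RNAi against Glioma and 2 with slo RNAi against Control. The authors' TPM gave 5 in Glioma against Control and 3 with Ca-alpha1T RNAi against Glioma with a pseudocount of 1 or 0.1, 0 with slo RNAi against Glioma at 1, and at 0.1 gave 2 with slo RNAi against Control and 1 between the RNAi libraries. The authors' FPKM gave 2 with Ca-alpha1T RNAi against Glioma and 0 with slo RNAi against Glioma. A 1.5-fold limit gave 7, 3, 2 and 6 in Glioma against Control, Ca-alpha1T RNAi against Glioma, Ca-alpha1T RNAi against Control and slo RNAi against Control, and 2 between the RNAi libraries. A 4-fold limit gave 0 in every comparison, for Wnt and other pathway genes alike. For the other pathway genes in Glioma against Control, total counts gave 10, a 1.5-fold limit 19, and TPM 10 and 13 at pseudocounts of 1 and 0.1. With Ca-alpha1T RNAi against Glioma the same settings gave 7, 11, 11 and 18. A 1.5-fold limit gave 4 with slo RNAi against Glioma, 4 with Ca-alpha1T RNAi against Control, 12 with slo RNAi against Control and 6 between the RNAi libraries, and TPM at 0.1 gave 1 with Ca-alpha1T RNAi against Control and 5 between the RNAi libraries. Scaling to neuron, neuroblast and eye-antennal disc markers, chosen after seeing the data, gave 0 Wnt genes in Glioma against Control and 0 with slo RNAi against Glioma. Of the 65 other pathway genes it gave 3 in Glioma against Control, all higher (Swim, mwh and Tig), and 0 with Ca-alpha1T RNAi against Glioma. Over all genes it called 2388 higher and 316 lower of 11410 in Glioma against Control. The counts were 271 and 1862 of 11405 with Ca-alpha1T RNAi against Glioma and 282 and 1393 of 11389 with slo RNAi against Glioma. That scaling moved the median of all genes by 0.49, −0.46 and −0.37 in Glioma against Control, Ca-alpha1T RNAi against Glioma and slo RNAi against Glioma. DESeq2 size factors, TMM on each pair, no count minimum, a minimum of 50 counts and a prior count of 5 left every one of these counts within 1.5 times. Calls over all genes changed with the setting too. In Glioma against Control 1153 genes were called higher and 663 lower with TMM. A 1.5-fold limit gave 2004 and 1449, total counts 884 and 1024, and TPM at 0.1 gave 747 and 1175. With Ca-alpha1T RNAi against Glioma TMM gave 562 and 785. There a 1.5-fold limit gave 1308 and 1563, total counts 975 and 473, and TPM at 0.1 gave 1583 and 356. With slo RNAi against Control a 1.5-fold limit gave 1521 and 1330, against 834 and 678. The cause of these differences was not tested.

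Over the planned settings wg ranged from −1.56 to −1.25 in Glioma against Control and from 0.94 to 1.41 with Ca-alpha1T RNAi against Glioma, and Wnt10 from 0.47 to 1.19 with slo RNAi against Glioma. The sign turned for Wnt6 in Glioma against Control and, for Wnt6 and fz3, in Ca-alpha1T RNAi against Glioma, both times under FPKM, TPM and total counts, and for Wnt5, Wnt6 and fz2 with Ca-alpha1T RNAi against Control on TPM. Wnt10, with 49 to 93 counts, has the widest intervals. No paired analysis was possible because each group holds 1 library, and no library could be left out for the same reason.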
